A study of Homo sapiens with 12 samples.

Results

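Transcript levels of 10 genes of epithelial inflammatory signalling were followed in 3-dimensional cultures of human mammary epithelial cells: the cytokines IL1A, IL1B and IL6, the chemokines CXCL1, CXCL2, CXCL8 and CCL20, the receptor IL1RL1, and the NF-kB inhibitors NFKBIA and TNFAIP3. All probe sets to which the platform annotation gives exactly 1 symbol, that of a gene among these, were taken, whatever their values. They were 15 of the 22215 probe sets tested, which cover 11963 genes, and 0 further probe sets name a gene of the 10 beside other symbols. IL1A, IL1B, CXCL8, IL1RL1 and TNFAIP3 have 2 probe sets each and the other genes 1, and each probe set is reported separately.

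The cells were HMT-3522 S1, an established non-neoplastic line from adult breast that forms acini, hollow spheres with an apical pole, in a gel rich in laminin. S1 cells of passage 55 to 60 were plated at 35000 per cm2 in medium with 5% Matrigel and 1.4 µM hydrocortisone, a glucocorticoid that all groups received. EGF at 10 ng/ml was present for 8 days and withdrawn for the last 48 hours in all groups. The 3 groups of 4 arrays were vehicle, labelled apically polarized, and AGA and Aza, labelled non-polarized. AGA cultures received 10 µM 18-alpha-glycyrrhetinic acid, which blocks gap junctions, and Aza cultures 10 µM 5-aza-2'-deoxycytidine, which traps DNA methyltransferases, for 10 days from plating with a change every 2 days. All groups come from 1 cell line, and the replicates, numbered 1 to 4 in each group, are called biological by the series design without more on how separate the cultures were, so the p-values measure the spread between these cultures.

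NF-kB is a family of transcription factors that inhibitor proteins of the IkB family hold in the cytoplasm. Signals through interleukin-1, tumour necrosis factor and toll-like receptors activate the IKK kinases, the inhibitor is degraded, and NF-kB enters the nucleus and switches on cytokine and chemokine genes. The same factor induces its own brakes, among them NFKBIA and TNFAIP3, which closes a feedback loop. Epithelial cells make these cytokines and chemokines themselves and use them to call in neutrophils and lymphocytes.

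A level below is the log2 of a quantile-normalized intensity, with intensities under 1 set to 1, so that a level of 0 is the floor of the scale. Probe sets differ in how strongly they bind, so a level is compared between arrays and not between genes. The median level of all probe sets was 4.76, and 7 of the 15 lay above it: both of IL1A, CXCL2, IL1RL1 207526_s_at, NFKBIA and both of TNFAIP3. IL6 and CXCL1 had 1 array each under an intensity of 1, the CXCL8 probe sets 2 and 4 arrays, and CCL20 3 arrays. Deposited medians per array ran from 23.3 to 35.9, with AGA 1 and AGA 3 lowest at 23.3 and 23.7, and these also had the most values under 1, at 7.82% and 7.94% against 5.26% to 6.30% on the other arrays.

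Of 7 measured epithelial marker genes 5 lay above the median level, among them the basal keratins KRT5 at 12.39 and KRT14 at 12.37. KRT19 was under an intensity of 1 on all 12 arrays and EPCAM on 4. Of 10 measured leukocyte markers 0 were above the median, and their summed level was 13.8 to 23.4 in vehicle, 18.8 to 23.9 in AGA and 16.7 to 25.0 in Aza, with LYZ under 1 on 9 arrays and PTPRC on 3. Of the fibroblast markers 2 of 8 (COL1A1 and DCN) and of the endothelial markers 1 of 5 (KDR) were above the median. These are bulk cultures, in which fewer cells of a kind and less RNA per cell cannot be told apart.

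No probe set of the 10 genes passed the test between treatments when the groups were compared without regard to replicate number, since the differences were small beside the spread of the 4 cultures in a group. The 1 gene with an ordered pattern was IL1RL1, the IL-33 receptor: probe set 207526_s_at was lowest with AGA, intermediate in vehicle and highest with Aza within each of the 4 replicate numbers. The difference between Aza and AGA was 1.13 ± 0.67 (log2, SE, 4 arrays a group), which is 2.19-fold. With the replicate number as a block the SE was 0.19 (limma adjusted p = 0.232). CXCL8 lay near the floor on both probe sets, and its differences of Aza from vehicle, -1.42 and -1.53 on the log2 scale, did not pass the test and were both 0 when intensities under 16 were set to 16. NFKBIA, the brightest member and the one with the narrowest range, stayed between 10.93 and 11.67 on all 12 arrays.

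The limma test over all probe sets, with Benjamini-Hochberg adjustment at 0.05, called 0 of 15 probe sets for AGA against vehicle, beside 0.009% of all probe sets, 0 of 15 for Aza against vehicle, beside 0.009%, and 0 of 15 for Aza against AGA, beside 0.0135%. The adjusted p of every probe set of the 10 genes was 1. At an unadjusted p under 0.05 the counts were 0 of 15 in each comparison, beside 4.73%, 3.27% and 4.76% of all probe sets. With the replicate number as a block the adjusted count was again 0 in each comparison, beside 0.009%, 0% and 0.009%, and 1 of 15, IL1RL1 207526_s_at, had an unadjusted p under 0.05 in each, beside 9.52%, 5.39% and 9.13%. With the block and a prior variance that follows the level, limma called 0, 0 and 1 of 15, beside 0.702%, 0.0045% and 0.851%, and the 1 was IL1RL1 207526_s_at for Aza against AGA. In 0 of 15 did the 4 arrays of a group lie wholly on 1 side of another's, beside 2.52%, 1.72% and 2.58% for the same 3 comparisons.

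The median difference over the 15 probe sets was 0.24 for AGA against vehicle, -0.01 for Aza against vehicle and -0.20 for Aza against AGA, beside 0.00 for all probe sets in each. Of the 15, 10 were higher and 5 lower in AGA than in vehicle, and 6 were higher and 9 lower with Aza than in vehicle. AGA and Aza are set against the same vehicle arrays, so these counts are not independent of each other.

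**Figure D1:**
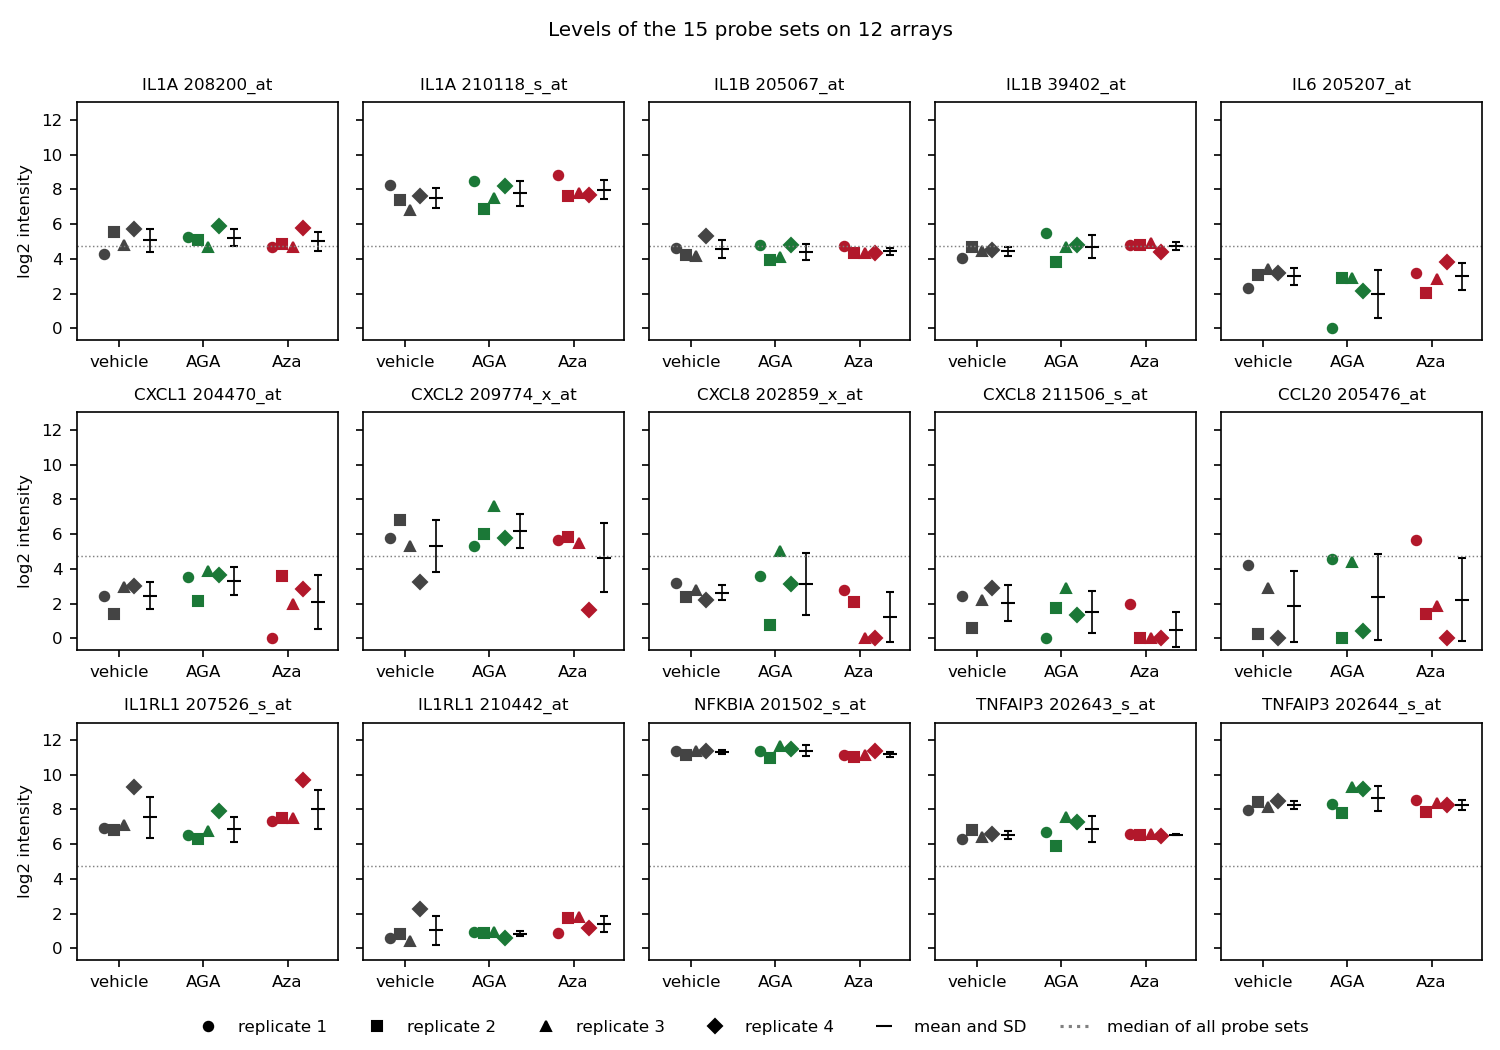
Levels (log2 of quantile-normalized intensity) of the 15 probe sets on the 12 arrays, with 1 point per array shaped by replicate number, the group mean and SD as bars, and the median of all probe sets, 4.76, as a dotted line. The groups overlap in every panel, and the replicate 4 arrays stand high in IL1RL1 207526_s_at.

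IL1A encodes interleukin-1 alpha, an alarmin that epithelial cells store and release when damaged. On probe set 210118_s_at its levels were 8.24, 7.39, 6.83 and 7.60 in vehicle, 8.49, 6.89, 7.49 and 8.17 in AGA, and 8.80, 7.59, 7.81 and 7.70 in Aza, in the order of replicates 1 to 4. Aza was above vehicle in all 4 same-number pairs although the groups overlapped, and replicate 1 was highest in every group. The mean difference was 0.46 ± 0.42 (SE), with a 95% interval of -0.46 to 1.38, and with the replicate block the interval was -0.08 to 1.00 (limma adjusted p = 0.913). Probe set 208200_at ran from 4.28 to 5.90 and differed by 0.15 for AGA and -0.06 for Aza. Its order of arrays was unrelated to that of the other IL1A probe set, with a Pearson r of -0.07 over the 12 arrays.

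IL1B encodes interleukin-1 beta, which is made as a precursor and cut by caspase-1. Its probe sets 205067_at and 39402_at stayed between 3.91 and 5.31 and between 3.82 and 5.48. AGA differed from vehicle by -0.18 ± 0.29 on the former and 0.28 ± 0.31 on the latter (SE), and Aza by -0.15 ± 0.29 and 0.30 ± 0.31. The probe sets thus differed in sign in both treatments, and each interval covered 0.

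IL6 encodes interleukin-6, which signals through gp130 to STAT3. Its levels were 2.29, 3.04, 3.43 and 3.19 in vehicle, 0.00, 2.87, 2.88 and 2.12 in AGA, and 3.21, 2.03, 2.86 and 3.84 in Aza. AGA was lower than vehicle in 4 of 4 pairs, and the array AGA 1 lay at the floor. The difference was -1.02 ± 0.62 (SE, 95% interval -2.39 to 0.35), and it was -0.36 without AGA 1 and 0 with a floor of 16 in place of 1. Aza differed from vehicle by -0.01.

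Across the 15 probe sets, 4 of 4 pairs ran the same way in few cases. AGA was above vehicle in all 4 pairs in 1 of 15, CXCL1, beside 9.15% of all probe sets, and below it in 2 of 15, IL6 and IL1RL1 207526_s_at, beside 9.06%. Aza was above vehicle in all 4 pairs in 2 of 15, IL1A 210118_s_at and IL1RL1 207526_s_at, beside 7.61%, and below it in 2 of 15, both of CXCL8, beside 7.12%. Aza was above AGA in all 4 pairs in 1 of 15, IL1RL1 207526_s_at, beside 8.66%, and below it in 0 of 15, beside 8.76%. These shares are near those of all probe sets.

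CXCL1, CXCL2 and CXCL8 encode chemokines that draw neutrophils through the receptor CXCR2, and CCL20 encodes the ligand of CCR6, which draws dendritic cells and lymphocytes. CXCL1 and CXCL2 are close paralogs, and the name ending _x_at of CXCL2 209774_x_at and CXCL8 202859_x_at marks probe sets that Affymetrix designed with probes shared with other transcripts, so paralogs may add to their signal. The 250 bases before the start of each gene were read from RefSeq's promoter table (GRCh38.p14), which held all 10 genes with 12 windows. The pair below is shown because these genes share their upstream sequence. Identity was 197 of 281 aligned columns (70.1%), against 43.9% between CXCL1 and CXCL8. Capitals mark matches to the NF-kB consensus, a motif of 10 bases searched on both strands. CXCL1 lies at chr4:73869143-73869392 on the plus strand and CXCL2 at chr4:74099196-74099445 on the minus strand.
CXCL1: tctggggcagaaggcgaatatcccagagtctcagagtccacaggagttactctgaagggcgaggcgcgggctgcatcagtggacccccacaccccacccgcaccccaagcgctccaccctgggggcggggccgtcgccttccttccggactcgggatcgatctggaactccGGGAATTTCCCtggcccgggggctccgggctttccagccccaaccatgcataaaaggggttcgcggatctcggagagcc
CXCL2: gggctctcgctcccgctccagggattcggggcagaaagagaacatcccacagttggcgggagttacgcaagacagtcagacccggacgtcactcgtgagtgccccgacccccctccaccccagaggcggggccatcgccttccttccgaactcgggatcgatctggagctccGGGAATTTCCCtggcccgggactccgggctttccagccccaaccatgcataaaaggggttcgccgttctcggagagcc
In each, 2 overlapping matches on opposite strands start 78 and 79 bases (CXCL1) or 77 and 78 bases (CXCL2) before the gene start. The consensus occurred in the windows of 6 of the 10 genes, IL6, CXCL1, CXCL2, CCL20, NFKBIA and TNFAIP3, between 46 and 81 bases upstream, and in 9.96% of all 35116 windows of that length. AP-1 sites, TGANTCA on either strand, occurred in 4 of the 12 windows, those of IL1A, CXCL8 and the proximal start of IL1RL1, and in 6.57% of all. A match is a description of the sequence and says nothing of binding in these cells.

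CXCL2 was 5.79, 6.79, 5.34 and 3.24 in vehicle, 5.34, 6.02, 7.60 and 5.78 in AGA, and 5.67, 5.82, 5.46 and 1.65 in Aza. The lowest arrays were the replicate 4 arrays of vehicle and Aza, and the highest was AGA 3. Aza differed from AGA by -1.54 ± 1.01 (SE, 95% interval -3.77 to 0.70), and by -0.54 without Aza 4. With the replicate block the interval was -3.26 to 0.19. CXCL1 was 2.46, 1.38, 2.98 and 3.03 in vehicle, 3.53, 2.13, 3.87 and 3.66 in AGA, and 0.00, 3.56, 1.95 and 2.81 in Aza. AGA was above vehicle in 4 of 4 pairs by a mean of 0.84 ± 0.71 (SE, 95% interval -0.74 to 2.42), a difference that did not pass and was 0 with a floor of 16, and the Aza arrays spanned from the floor to 3.56.

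CXCL8, which encodes interleukin-8, gave 3.20, 2.38, 2.77 and 2.19 in vehicle, 3.58, 0.75, 5.02 and 3.15 in AGA, and 2.80, 2.08, 0.00 and 0.00 in Aza on probe set 202859_x_at. On 211506_s_at it gave 2.46, 0.57, 2.23 and 2.87 in vehicle, 0.00, 1.77, 2.91 and 1.34 in AGA, and 2.00, 0.00, 0.00 and 0.00 in Aza. The Aza arrays 3 and 4 were at the floor on both probe sets, and Aza was below vehicle in 4 of 4 pairs on both. The differences were -1.42 ± 0.88 (SE, 95% interval -3.35 to 0.52) and -1.53 ± 0.70 (-3.09 to 0.02), with limma adjusted p = 1 for each. All these levels lay near the floor, where an intensity of a few units sets the log2 value, and with a floor of 16 in place of 1 both differences were 0. The Pearson r between the CXCL8 probe sets was 0.52 over the 12 arrays.

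CCL20 varied by replicate number more than by treatment. Its levels were 4.21, 0.26, 2.88 and 0.00 in vehicle, 4.58, 0.00, 4.41 and 0.44 in AGA, and 5.63, 1.42, 1.83 and 0.00 in Aza. Replicate 1 was highest in every group and replicates 2 and 4 lowest, with means per number of 4.81, 0.56, 3.04 and 0.15. The treatment differences were 0.52 for AGA (95% interval -2.80 to 3.84) and 0.38 for Aza (-2.94 to 3.70). With the replicate block the intervals were -0.89 to 1.92 and -1.02 to 1.78.

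IL1RL1 encodes ST2, the receptor of the alarmin IL-33, which is made as a membrane form and as a soluble decoy form, from transcripts that start at a distal or a proximal promoter. RefSeq's table gave a window for each start, shown because Aza inhibits DNA methylation, which acts on CpG dinucleotides, and because the gene was the only one of the 10 with an ordered pattern. The windows lie at chr2:102311313-102311562 (distal) and chr2:102337007-102337256 (proximal), both on the plus strand of GRCh38.p14, and capitals mark the AP-1 match.
IL1RL1 distal: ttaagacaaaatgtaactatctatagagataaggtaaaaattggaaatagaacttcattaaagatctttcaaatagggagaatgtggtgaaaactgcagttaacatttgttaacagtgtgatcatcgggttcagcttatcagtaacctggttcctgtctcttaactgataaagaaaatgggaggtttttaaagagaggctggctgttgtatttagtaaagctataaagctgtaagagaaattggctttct
IL1RL1 proximal: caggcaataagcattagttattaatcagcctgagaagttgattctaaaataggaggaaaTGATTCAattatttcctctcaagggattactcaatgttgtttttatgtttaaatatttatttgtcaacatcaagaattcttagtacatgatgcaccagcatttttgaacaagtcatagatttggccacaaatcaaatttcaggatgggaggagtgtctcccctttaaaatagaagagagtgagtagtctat
They hold 1 and 0 CpG dinucleotides, against a median of 11 over all windows, and 14.7% of all windows have 1 or fewer. Low counts also occurred in members without the ordered pattern: 1 in IL1B, 3 in CCL20, 4 each in IL6 and CXCL8, and 8 and 7 in IL1A. The windows of CXCL1, CXCL2, NFKBIA and TNFAIP3 held 18, 20, 15 and 29. Whether CpG content bears on the levels was not tested. Their GC content was 33.6% and 33.2%, against a median of 58.0%. No methylation was measured.

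On IL1RL1 207526_s_at the levels were 6.91, 6.84, 7.11 and 9.26 in vehicle, 6.52, 6.28, 6.74 and 7.91 in AGA, and 7.31, 7.50, 7.49 and 9.66 in Aza. Within every replicate number AGA was lowest and Aza highest, and in numbers 1 to 3 the 3 groups did not overlap at all. The replicate 4 arrays stood above all others in their groups, so over all 4 numbers the groups overlapped. The Aza minus AGA differences in numbers 1 to 4 were 0.79, 1.23, 0.76 and 1.75, those of AGA minus vehicle -0.39, -0.56, -0.38 and -1.35, and those of Aza minus vehicle 0.40, 0.67, 0.38 and 0.40.

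Without the block, the difference of Aza against AGA had a 95% interval of -0.35 to 2.61. With the replicate block it was 0.68 to 1.58 (limma unadjusted p = 0.000535, adjusted p = 0.232), and with the block and the trended prior variance the adjusted p was 0.00175. The last fit kept its call in 15 of 15 settings that left out an array or all replicate 4 arrays or rescaled the arrays, with adjusted p from 4.8e-05 to 0.0132. AGA against vehicle was -0.67 ± 0.67 (SE), with an adjusted p of 0.44 under the block and 0.0533 under block and trend. That fit called it without AGA 1 (adjusted p = 0.0308) and on the deposited scale (0.00534), and not in the other 13 settings. Aza against vehicle was 0.46 ± 0.67 (SE, block adjusted p = 0.912, block and trend 0.665), and without Aza 4 its sign turned, to -0.09, in the fit without the block. Without vehicle 4, AGA against vehicle shrank to -0.09 there. That fit takes no account of the high replicate 4 array left in the other group. With block and trend, Aza against vehicle was 0.37 without Aza 4, and AGA against vehicle was -0.55 without vehicle 4.

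The order of AGA below vehicle below Aza in all 4 numbers held for 1 of 15 probe sets, beside 0.338% of all probe sets, which is 75 of 22215, and 0.576% of those above the median level. Non-overlap in that order in numbers 1 to 3 held for 1 of 15, beside 0.14%. The order and the cut to numbers 1 to 3 were taken from the values of IL1RL1 207526_s_at itself. Other orders were not counted, so these shares are a description and not a test. IL1RL1 207526_s_at also kept the order in 4 of 4 numbers without normalization between arrays and after median centring. The other IL1RL1 probe set, 210442_at, ran from 0.44 to 2.27, near the floor, with a Pearson r of 0.52 to the brighter one. It did not have the order: AGA was above vehicle in 3 of 4 pairs. Aza differed from AGA there by 0.55 ± 0.38 (SE) and was above it in 3 of 4 pairs.

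**Figure D2:**
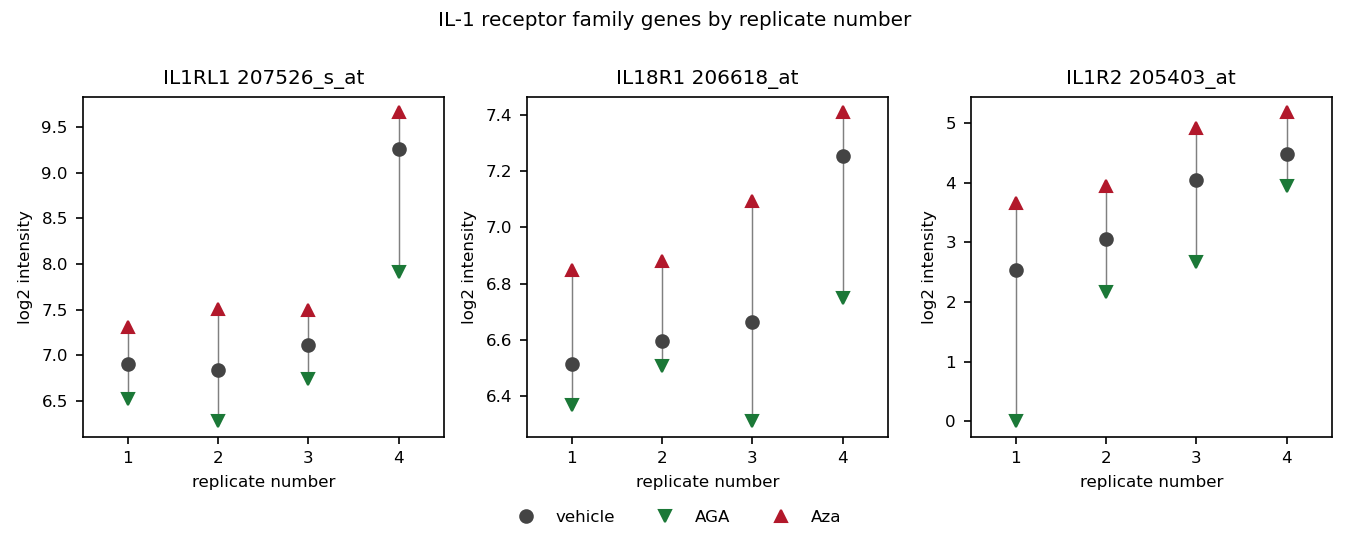
Levels (log2 of quantile-normalized intensity, 1 point per array, axes not from 0) of IL1RL1 207526_s_at, IL18R1 206618_at and IL1R2 205403_at by replicate number, with the 3 groups of a number joined by a line. In all 4 numbers AGA is lowest, vehicle in between and Aza highest, and the number 4 arrays of IL1RL1 lie at 7.91 to 9.66. Of the 9 probe sets of 6 neighbouring interleukin-1 receptor family genes, only these 3 have this order, and they are shown for it.

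IL1RL1 lies on chromosome 2 in a run of 6 interleukin-1 receptor family genes, in RefSeq order IL1R2, IL1R1, IL1RL2, IL1RL1, IL18R1 and IL18RAP. These neighbours were looked at after the values of IL1RL1 had been seen. The 5 genes other than IL1RL1 have 7 probe sets, and 2 of these 7 had the order AGA below vehicle below Aza in all 4 numbers, IL1R2 205403_at and IL18R1 206618_at, beside 0.338% of all probe sets. On the deposited scale it was 1 of 7, IL1R2, beside 0.234%, since IL18R1 then had the order in 3 of 4 numbers.

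IL18R1 encodes a chain of the interleukin-18 receptor. It gave 6.51, 6.60, 6.66 and 7.26 in vehicle, 6.37, 6.51, 6.31 and 6.75 in AGA, and 6.85, 6.88, 7.09 and 7.41 in Aza. Aza was above AGA in 4 of 4 pairs by 0.58 ± 0.21 (SE), with a limma adjusted p of 0.943 without the block, 0.233 with it and 0.0369 with block and trend. IL1R2 encodes a decoy receptor that binds interleukin-1 without signalling. It gave 2.54, 3.05, 4.04 and 4.48 in vehicle, 0.00, 2.17, 2.67 and 3.94 in AGA, and 3.66, 3.94, 4.92 and 5.18 in Aza. Aza exceeded AGA by 2.23 ± 0.76 (SE), with adjusted p = 0.926 without the block, 0.232 with it and 0.052 with block and trend, and AGA 1 was at the floor. This probe set, 205403_at, had a mean of 3.38, below the median level. The other IL1R2 probe set, 211372_s_at, had a mean of 0.90 and did not have the order. There AGA was above vehicle in 2 of 4 pairs, and Aza exceeded AGA by 1.17 ± 0.67 (SE). The signalling receptor IL1R1 did not share the order: its brighter probe set, 202948_at, differed between Aza and AGA by 0.31 ± 0.50 (SE). IL1RL2 and IL18RAP did not have it either, with differences of Aza from AGA of -0.22 ± 0.46 and 0.94 ± 0.91 (SE). In both, AGA was above vehicle on average, by 0.09 and 0.54.

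NFKBIA encodes IkB-alpha, which holds NF-kB in the cytoplasm, and TNFAIP3 encodes A20, an enzyme that edits ubiquitin chains and shuts off signalling to IKK. Their upstream windows are shown because both are known NF-kB targets, with the consensus matches in capitals. NFKBIA lies at chr14:35404750-35404999 on the minus strand and TNFAIP3 at chr6:137867009-137867258 on the plus strand.
NFKBIA: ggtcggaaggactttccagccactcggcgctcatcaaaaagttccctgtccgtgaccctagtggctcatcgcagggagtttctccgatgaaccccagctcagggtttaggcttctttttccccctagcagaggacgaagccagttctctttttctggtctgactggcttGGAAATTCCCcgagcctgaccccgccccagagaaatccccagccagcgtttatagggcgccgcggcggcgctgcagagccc
TNFAIP3: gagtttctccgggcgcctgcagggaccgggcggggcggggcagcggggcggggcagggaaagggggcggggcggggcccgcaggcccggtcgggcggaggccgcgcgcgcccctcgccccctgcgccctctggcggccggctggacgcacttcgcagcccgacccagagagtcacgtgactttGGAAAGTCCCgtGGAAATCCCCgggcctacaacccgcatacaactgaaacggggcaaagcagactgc
TNFAIP3 has 2 matches that do not overlap, and NFKBIA has 1. Windows with 2 or more matches, overlapping ones counted, made up 1.72% of all.

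NFKBIA gave 11.33, 11.13, 11.37 and 11.35 in vehicle, 11.37, 10.93, 11.67 and 11.49 in AGA, and 11.15, 11.03, 11.10 and 11.39 in Aza. It was the gene with the narrowest spread of the 10, and its groups overlapped. It was also the brightest, and spread depends on the level. Near the floor, as for CCL20 and CXCL8, a few units of intensity set the log2 value. The differences were 0.07 ± 0.18 for AGA and -0.13 ± 0.18 for Aza against vehicle (SE), and -0.20 ± 0.18 for Aza against AGA, with a 95% interval of -0.59 to 0.19. On the deposited scale the AGA difference changed sign, to -0.10.

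TNFAIP3 on probe set 202644_s_at gave 7.94, 8.42, 8.14 and 8.47 in vehicle, 8.29, 7.80, 9.31 and 9.17 in AGA, and 8.51, 7.82, 8.37 and 8.26 in Aza. AGA spanned all other arrays, with AGA 3 and AGA 4 above and AGA 2 below every vehicle array. The difference of AGA from vehicle was 0.40 ± 0.32 (SE, 95% interval -0.31 to 1.12), and 0.35 ± 0.31 on 202643_s_at, while Aza differed by 0.00 and 0.03. The TNFAIP3 probe sets followed each other with a Pearson r of 0.92 over the 12 arrays, and NFKBIA followed 202643_s_at with 0.72 and 202644_s_at with 0.73. The Spearman rho was lower, at 0.85 between the TNFAIP3 probe sets and 0.45 and 0.57 for NFKBIA with them. These correlations describe 12 arrays of 3 groups that share 4 replicate numbers.

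**Figure D3:**
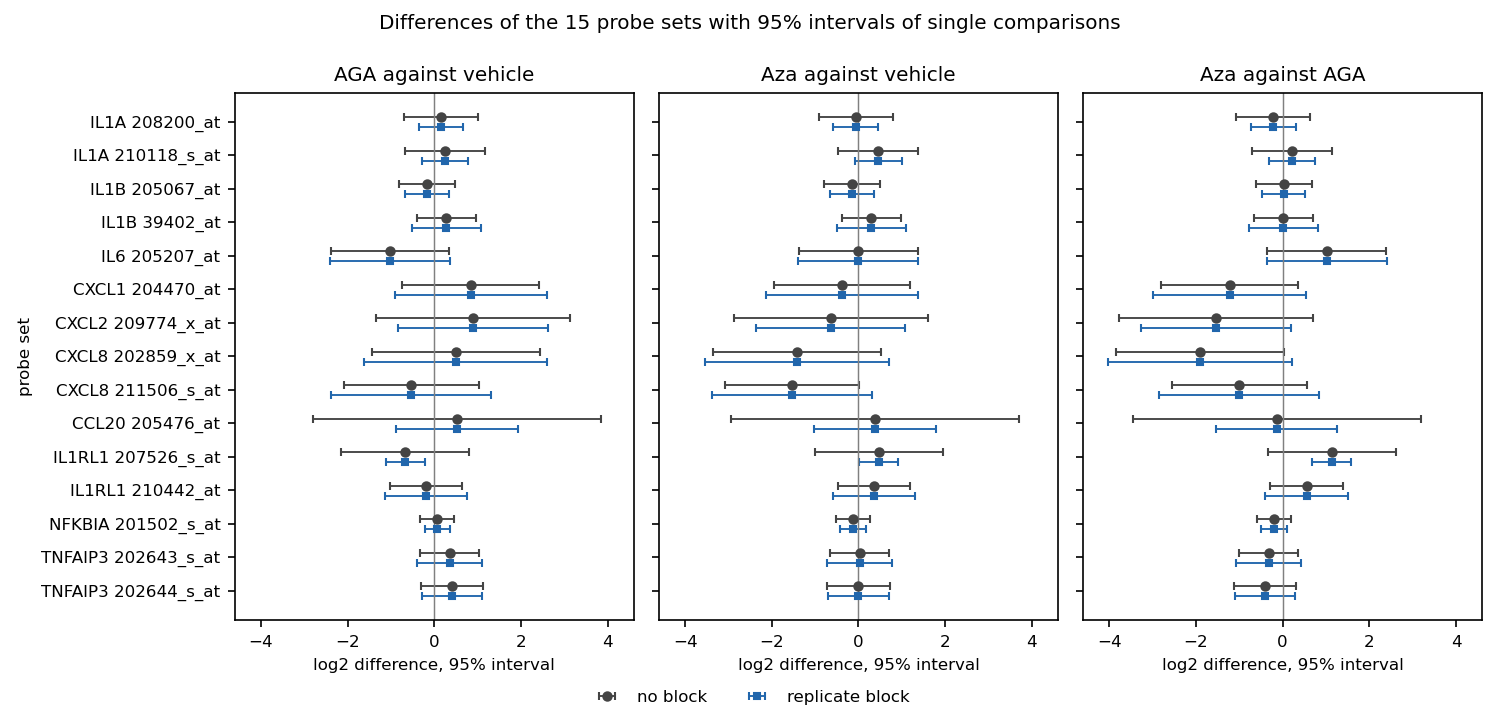
Differences (log2) of the 15 probe sets in the 3 comparisons, with 95% intervals of single comparisons from the fit without (grey) and with (blue) the replicate block. All grey intervals cross 0, and the blue intervals that do not are those of IL1RL1 207526_s_at, from 0.68 to 1.58 for Aza against AGA.

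Some members were extreme on the same array, a pattern noticed after the values were seen. AGA 3 was the highest of the 12 arrays for 7 of 15 probe sets, those of CXCL1, CXCL2, CXCL8, NFKBIA and TNFAIP3, beside 10.3% of all probe sets. On the deposited scale, without normalization between arrays, it was highest for 4 of 15, beside 2.96%, and on median-centred arrays for 7, beside 14.4%. AGA 2 was the lowest array for 6 of 15, those of IL1B, IL1RL1 207526_s_at, NFKBIA and TNFAIP3, beside 7.51%. It was lowest for 5 of 15 on the deposited scale, beside 4.73%, and for 8 on median-centred arrays, beside 8.1%. The AGA group thus held both extremes of TNFAIP3 on every scale. It held both extremes of NFKBIA except on the deposited scale, where vehicle 3 was the highest array. Its SD for TNFAIP3 202644_s_at was 0.72, against 0.25 in vehicle and 0.30 in Aza.

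**Figure D4:**
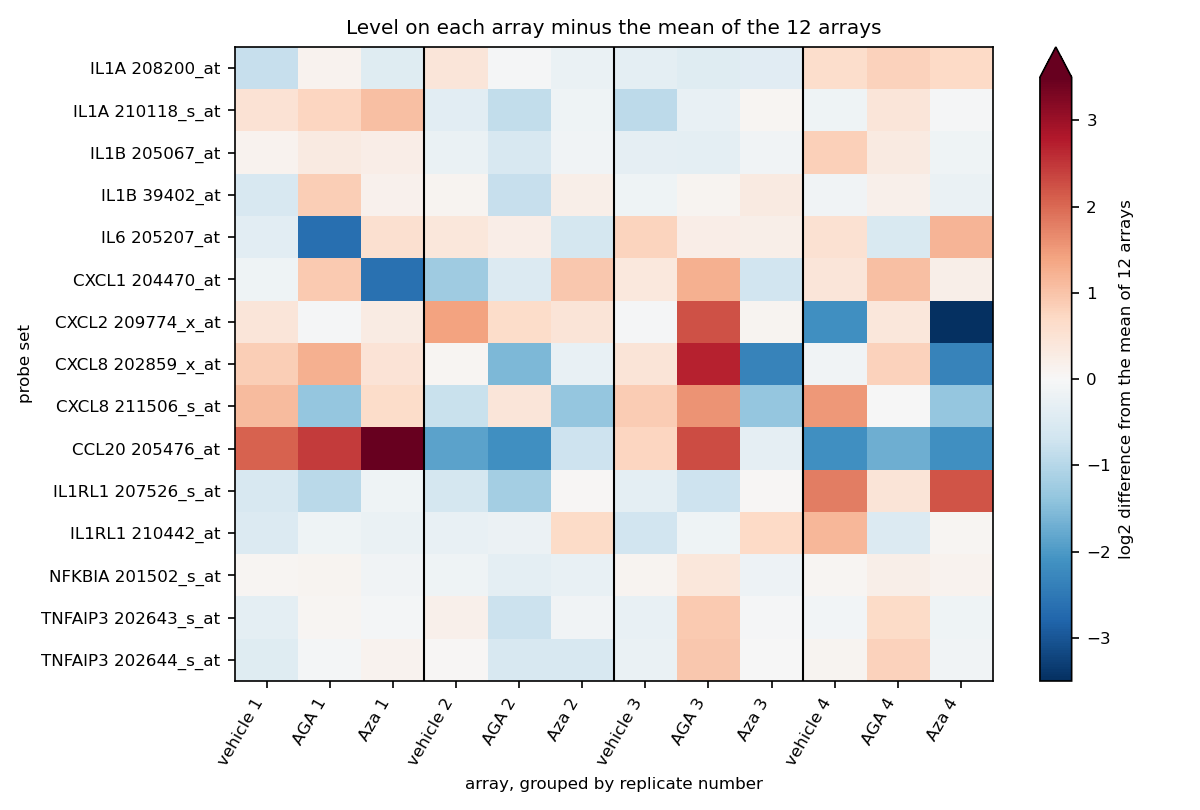
Level of each of the 15 probe sets on each array minus its mean over the 12 arrays (log2, colour scale from below to above the mean), with arrays grouped by replicate number. CCL20 is high in number 1 and low in numbers 2 and 4, IL1RL1 207526_s_at is high in number 4, and AGA 3 is high for 7 probe sets.

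Differences between replicate numbers were tested with a moderated F test in a model of group plus number (limma, adjusted over all probe sets). It called 2 of 15 probe sets, beside 9.63% of all. They were IL1RL1 207526_s_at, with means of 6.91, 6.87, 7.11 and 8.94 in numbers 1 to 4 (adjusted p = 0.00922), and CCL20 (adjusted p = 0.0212). IL1A followed at 0.0647 (210118_s_at) and 0.0748 (208200_at) and CXCL2 at 0.173. The IL1RL1 call was lost without vehicle 4 (0.0536), without Aza 4 (0.0523) and without all replicate 4 arrays (0.611). The CCL20 call was lost without vehicle 1, 2, 3 or 4, AGA 4, Aza 1 or Aza 4 (0.0514 to 0.0787), without all replicate 4 arrays (0.299) and with a floor of 16 (0.288). The summed level of the 10 leukocyte markers was 18.8 to 21.4 on the replicate 4 arrays and 13.8 to 25.0 on the others.

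The rest of the pathway was read from 7 gene lists of ligands, receptors, NF-kB subunits, inhibitors, kinases and targets, with 114 of 132 genes measured by 200 probe sets. The limma test called 0 of 200 in any comparison, without and with the replicate block. With block and trend it called 2 of 200 for Aza against AGA, which is 1%, near the 0.851% of all probe sets: IL18R1, which was higher, and CFLAR 211317_s_at, an inhibitor of caspase-8, which was lower, at a difference of -0.47 ± 0.25 (SE, adjusted p = 0.0467). CFLAR has 11 probe sets, and the other 10 were not called, 9 of them lower in Aza than in AGA by mean.

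Among 31 probe sets of interleukin-1 family genes, receptors and adaptors, the median differences were 0.00 for AGA, 0.08 for Aza and -0.10 for Aza against AGA. IL1RN encodes the natural antagonist of the interleukin-1 receptor, and its probe set 212657_s_at had the lowest p among the higher ones for AGA, at 1.48 ± 0.61 (SE). The 5 IL1RN probe sets disagreed in direction: 216245_at differed by 1.22, while 212659_s_at, 216243_s_at and 216244_at differed by -0.92, -1.10 and -0.43. IRAK3, an inhibitor of signalling from the same receptor, had the lowest p among the lower ones on 220034_at. It differed there by -1.94 ± 0.43 (limma adjusted p = 0.808), from a vehicle mean of 1.94 to the floor. Its other probe set, 213817_at, differed by -0.47 ± 0.56. The 20 probe sets of the interleukin-6 family had medians of 0.06, -0.05 and -0.03 in the same order. STAT3, the factor that interleukin-6 activates, differed by -0.28 ± 0.19 in AGA on 208991_at and by -0.29 ± 0.28 on 208992_s_at. The 32 probe sets of other chemokines and their receptors, of which 4 lay above the median level, had medians of 0.23, 0.09 and -0.14, and CXCL5 215101_s_at had the lowest p for AGA at 1.72 ± 0.65 (SE, adjusted p = 1), with 0.39 ± 0.81 and 0.31 ± 0.84 on the other CXCL5 probe sets.

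The 9 probe sets of NF-kB subunits had medians of 0.18 for AGA, 0.04 for Aza and -0.28 for Aza against AGA. NFKB1, which encodes p105 and p50, was higher in AGA than in vehicle by 0.34 ± 0.14 (SE) and lower in Aza than in AGA by 0.40 ± 0.14, with limma adjusted p of 1 and 0.943. The 23 probe sets of other inhibitors had medians of 0.02, -0.10 and -0.01, and TNIP2 218335_x_at, of a partner of A20, differed by 0.57 ± 0.24 in AGA, against 0.02 ± 0.19 on the other TNIP2 probe set, 48531_at. The 37 probe sets of kinases and receptors had medians of -0.05, -0.01 and 0.01. TLR3, the receptor of double-stranded RNA, differed by 0.82 ± 0.35 in AGA and by -0.99 ± 0.35 between Aza and AGA (adjusted p = 0.943). The 48 probe sets of other targets had medians of 0.08, -0.08 and -0.12, and ICAM1 215485_s_at, an adhesion molecule for leukocytes, differed by 1.71 ± 0.55 in AGA and 1.73 ± 0.55 in Aza (adjusted p = 0.982 and 1). The other ICAM1 probe sets did not share this: 202637_s_at differed by 0.46 ± 0.73 and -0.11 ± 0.73, and 202638_s_at by -0.51 ± 0.69 and 0.66 ± 0.69. All these values are on the log2 scale with SE, over 4 arrays a group, and none passed.

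Between replicate numbers, 24 of these 200 probe sets (12%) were called, beside the 9.63% of all. The receptor CXCR4 was lowest in number 4 on its 3 called probe sets, with means of 7.30, 8.14, 7.97 and 5.74 in numbers 1 to 4 on 217028_at (adjusted p = 0.00417). IER3, an early response gene, ran 7.35, 5.47, 5.88 and 3.73 (0.0371), and ZFP36, which degrades cytokine mRNA, 10.44, 8.97, 9.25 and 7.91 (0.019). MAP3K7, the kinase TAK1 upstream of IKK, was highest in number 4 on its 4 called probe sets, for example 6.15, 5.89, 5.98 and 6.96 on 211537_x_at (0.0204). IL1R1 215561_s_at was also highest there, at 3.59, 3.85, 3.66 and 5.35 (0.0273).

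The probe sets of other genes most like each member above the median level were found by Pearson r over the 12 arrays among 9786 candidates. For IL1RL1 207526_s_at they were RIPOR2 (0.961), PRDX6 (0.960) and SRPK1 (0.958). For CXCL2 they were PPIF (0.939), CHMP2B (0.937) and MAP4 (0.932), and CXCL2 itself had an r of -0.86 to IL1RL1 207526_s_at, with a Spearman rho of -0.56. For NFKBIA they were GEMIN4 (0.918), SEPHS2 (0.872) and TPI1 (0.862), and for TNFAIP3 202643_s_at SLC25A12 (0.864), GALNT7 (0.850) and DBN1 (0.846). For TNFAIP3 202644_s_at they were C6orf120 (0.873), TUBB2A (0.834) and SLC25A12 (0.831), so SLC25A12 was shared. For IL1A they were SETBP1 (0.954), WARS2 (0.952) and NUCKS1 (0.942) on 208200_at and GBE1 (0.892), APPBP2 (0.869) and PRP4K (0.847) on 210118_s_at. The 12 points share 4 replicate numbers, and the values of IL1RL1 and CXCL2 on the replicate 4 arrays lie far from the rest.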

How the data were processed

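RNA of 12 cultures, 4 per group, was hybridised to Affymetrix arrays, 1 sample per array, from 2.25 µg of total RNA per the labels' protocols. The values deposited by the authors are linear intensities per probe set, made with GCOS per the submitters' processing notes. Its version, its algorithm and any scaling are not given in the sources used here, and detection calls were not used. The number of arrays limits the precision.

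Of 22277 probe sets, 62 controls were left out. Intensities below 1 were set to 1, log2 was taken and arrays were quantile normalized, because their log2 medians spread by 0.62. The annotation gave 19064 probe sets 1 symbol, 1043 several and 2108 none; all 10 member symbols matched RefSeq by gene ID. All 12 arrays were fitted with limma 3.58.1 in R 4.3.3 (two-sided moderated test, Benjamini-Hochberg over 22215 probe sets, threshold 0.05), without a block. SEs and intervals are those of this fit, which ignores the pairing, unless stated to be from the block. Scripts were tested on simulated data.

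Same-number arrays of different groups were checked for shared deviations from the group means. Over the 11107 probe sets above the median level 12 of 12 pairs correlated over 0.1 (0.368 to 0.781, different numbers at most 0.181), and over all probe sets 6 of 12 (0.0589 to 0.261, against 0.0292). The numbers were therefore taken to pair the cultures; the labels give only the numbers.

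Alternatives were the replicate block, the block with a trended, robust prior variance, the deposited scale, median-centred arrays, a floor of 16, dim probe sets left out, only the 2 groups compared, and leaving out each array or all replicate 4 arrays. Combining block and trend with rescaling or left-out arrays for IL1RL1 was added after seeing the data. The counts of the order AGA below vehicle below Aza were added then too. The members and gene lists were chosen with earlier results of these data known. Named beyond the members were, per list and comparison, the lowest p in each direction (here a selection of them), probe sets past the threshold, and the 3 most alike probe sets per member above the median level; the neighbours of IL1RL1, the probe sets called between replicate numbers, and the extreme arrays were named after their values were seen. Promoter windows come from RefSeq, GRCh38.p14.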

Additional observations from a re-analysis of the deposited data

Results flagged for a closer look

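Of 45 groups of 4 arrays, 1 per probe set and treatment group, 8 (17.8%) had an array far from the other 3, where chance alone gives about 1 in 20 groups. Over all probe sets 9.22% of 66645 groups had one. The groups share the same 12 arrays and are not independent, and 5 of the 8 arrays are replicate 4 arrays, as were 39.5% of those over all probe sets. The measure is the gap to the nearest array as a share of the group's range. For IL1RL1 207526_s_at the replicate 4 arrays stood high in vehicle (9.26 against 6.84 to 7.11, share 0.886) and in Aza (9.66 against 7.31 to 7.50, share 0.919). For CXCL2 Aza 4 stood low (1.65 against 5.46 to 5.82, share 0.915), and for IL1A 208200_at Aza 4 stood high (5.80 against 4.66 to 4.85, share 0.834). Aza 1 stood high for IL1B 205067_at (4.71 against 4.31 to 4.34, share 0.912) and for CXCL8 211506_s_at (2.00 against 3 arrays at the floor, share 1.0). AGA 4 was low for the dim IL1RL1 210442_at (0.62 against 0.90 to 0.94, share 0.872), and vehicle 2 was low for NFKBIA (11.13 against 11.33 to 11.37, share 0.841).

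For IL1RL1 207526_s_at AGA lay below vehicle and Aza above it in all 4 same-number pairs, so the differences from vehicle had opposite signs. Their difference equals that of Aza against AGA, 1.13 on the log2 scale. That of Aza against AGA passed only in the limma fit with replicate block and trend (adjusted p = 0.00175). It did not pass with the block alone (0.232) or without the block (1). Against vehicle, neither AGA nor Aza passed in any of these fits. With block and trend the limma adjusted p was 0.0533 for AGA and 0.665 for Aza. On the dimmer probe set, 210442_at, AGA was above vehicle in 3 of 4 pairs. Opposite effects of the treatments were thus not shown.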

How the results depend on the processing

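Each of the 45 differences had 19 or 20 alternatives, the 19 being those of dim probe sets, which cannot be left out for being dim. The sign was kept in all of them for 14, turned in at least 1 for 21, and became exactly 0 without turning for 10; none of the 45 had passed. With a floor of 16, 13 differences were 0: all 3 comparisons of IL6, CXCL1, CXCL8 211506_s_at and IL1RL1 210442_at, and Aza against vehicle for CXCL8 202859_x_at. Adding the replicate block left the counts of called probe sets at 0 in all 3 comparisons, and with block and trend the count for Aza against AGA became 1. The count called between replicate numbers was 2, with 1 at a floor of 16, 4 with dim probe sets left out (IL1A on both probe sets and CXCL2 joined, CCL20 was not tested), 0 without all replicate 4 arrays and 0 to 2 when each array was left out. The treatment counts stayed at 0 there.
Signs turned for AGA against vehicle on the deposited scale (IL1A 208200_at -0.13 and 210118_s_at -0.014, NFKBIA -0.10) and without all replicate 4 arrays (IL1RL1 210442_at 0.30). They turned for Aza against vehicle on the deposited scale (TNFAIP3 202643_s_at -0.045), on median-centred arrays (IL6 0.049, TNFAIP3 202644_s_at 0.021) and without all replicate 4 arrays (IL1B 205067_at 0.13, TNFAIP3 202644_s_at 0.069). They turned for Aza against AGA on the deposited scale (CCL20 0.082) and with a floor of 16 (IL1B 39402_at -0.024, CCL20 0.16). The cause was not tested.
Leaving out 1 array at a time gave, for AGA against vehicle, IL1A 208200_at -0.11 to 0.36 and 210118_s_at -0.0002 to 0.54, IL1B 205067_at -0.31 to 0.068, CXCL8 202859_x_at -0.14 to 1.28, CCL20 -0.22 to 1.31, IL1RL1 210442_at -0.39 to 0.22 and NFKBIA -0.032 to 0.21. For Aza against vehicle it gave IL1A 208200_at -0.33 to 0.15, IL1B 205067_at -0.29 to 0.092, IL6 -0.29 to 0.31, CXCL1 -0.87 to 0.31, CXCL2 -1.32 to 0.36, CCL20 -0.76 to 1.17, IL1RL1 207526_s_at -0.092 to 1.04, TNFAIP3 202643_s_at -0.042 to 0.13 and 202644_s_at -0.10 to 0.14. For Aza against AGA it gave IL1A 208200_at -0.48 to 0.0098 and 210118_s_at -0.075 to 0.46, IL1B 205067_at -0.14 to 0.15 and 39402_at -0.27 to 0.28, and CCL20 -1.28 to 0.61. All these ranges are from the fit without the block, in which leaving out an array breaks its pair. With block and trend, Aza against vehicle for IL1RL1 207526_s_at ran from 0.37 to 0.59 over the 15 added settings.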
